A study of Zea mays with 6 samples.

Results

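The genes described here are assigned to abscisic acid (ABA) synthesis, ABA breakdown and ABA signaling, and their transcripts were examined in the coleoptile tip of maize seedlings. They were taken from the expression table by gene identifier and number 7 of the 39283 genes listed. Of these, 2 belong to ABA turnover, namely vp14 for synthesis and a gene for ABA 8'-hydroxylase for breakdown. The other 5 belong to signaling, namely vp1, PP2C3, PP2C4, PP2C6 and SNRKII2.

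RNA was sequenced from fdl1-Mu and wild-type coleoptile tips, the tips of the sheath around the first seedling leaves, with 3 libraries per group. The fdl1-Mu allele carries a transposon insertion in FDL1 (ZmMYB94), an R2R3 MYB transcription factor of cuticle formation. Both groups were in the W22 background, were grown in a chamber at 28°C and were collected 3 d after germination, and each library pooled 5 tips of 3 to 4 mm. According to the study's methods, the plants collected were homozygous and heterozygous for fdl1-Mu, and the labels state that mutant tips of normal appearance were among those taken. The reads of these W22 plants were mapped to the B73v3 genome.

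The values are FPKM (fragments counted on a transcript, set relative to its length and to the size of the library), given by the authors as 1 pooled value per group. Values per library and read numbers were not analysed here, so that no spread between replicates and no test stands beside any value, and differences are described by their size alone. A gene is said to be past the limit where the FPKM of 1 group was at least 1.5 times that of the other and reached at least 1 in either group. FDL1 itself (GRMZM2G056407) had an FPKM of 12.7 in the libraries labelled fdl1-Mu, against 4.58 in those labelled wild type, so that its transcript level goes against a loss of transcript. Whether these transcripts carried the insertion cannot be read from 1 value for the gene, and fdl1-Mu and wild type below mean the groups labelled so. In whole tips, fewer cells of a type cannot be told apart from less RNA per cell. Of the 21364 genes that reached an FPKM of 1 in a group and were above 0 in both, 11.7% were past the limit as higher and 5.33% as lower in fdl1-Mu. Their median log2 ratio was 0.021, and the summed FPKM of all genes was 1.03 times higher in fdl1-Mu.

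ABA is made from carotenoids. The 9-cis-epoxycarotenoid dioxygenase encoded by vp14 cuts the carotenoid precursor, the step that is usually held to limit the rate of synthesis, and aldehyde oxidases complete the hormone. The cytochrome P450 enzyme ABA 8'-hydroxylase starts its breakdown. When ABA is bound by receptors of the PYL family, these block protein phosphatases of type 2C (PP2C), which otherwise hold SnRK2 kinases inactive, and the released kinases act on transcription factors and ion channels. In many plants the PP2C genes of this pathway are themselves induced by ABA. VP1, the maize homolog of Arabidopsis ABI3, is best known for ABA-dependent gene expression in the maturing seed.

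Both turnover genes were close to the bottom of the expression range in both groups. The synthesis gene vp14 (GRMZM2G014392, chromosome 1 of B73v3, 250953388 to 250956063) had an FPKM of 0.494 in fdl1-Mu, against 0.328 in wild type. Among all genes above 0 in a group, this placed vp14 at percentile 21.9 in fdl1-Mu and 19.8 in wild type. The ABA 8'-hydroxylase gene (GRMZM2G002142, chromosome 2, 186842961 to 186845670) was lower still, with an FPKM of 0.0709 in fdl1-Mu, against 0.0456 in wild type. It stood at percentile 8.98 in fdl1-Mu and 6.62 in wild type. The deposited table marks both genes as having too few reads for a comparison.

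As ratios, both turnover genes leaned the same way and by similar amounts. The log2 ratio of fdl1-Mu over wild type was 0.59 for vp14 and 0.64 for the ABA 8'-hydroxylase gene, or 1.51-fold and 1.56-fold. In absolute terms the difference was 0.166 FPKM for vp14 and 0.0253 FPKM for the hydroxylase gene. Adding 1 to each FPKM gave log2 ratios of 0.17 and 0.034. Ratios of this size were common at such levels. Of the 6650 genes that were under 1 FPKM in both groups but above 0 in both, 28.5% were at least 1.5-fold higher in fdl1-Mu and 25.5% at least 1.5-fold lower. The quotient of the synthesis gene over the breakdown gene was 6.97 in fdl1-Mu and 7.19 in wild type, with no pseudocount. With a pseudocount the sign of this difference turned, and neither direction was detectable at these levels.

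**Figure D1:**
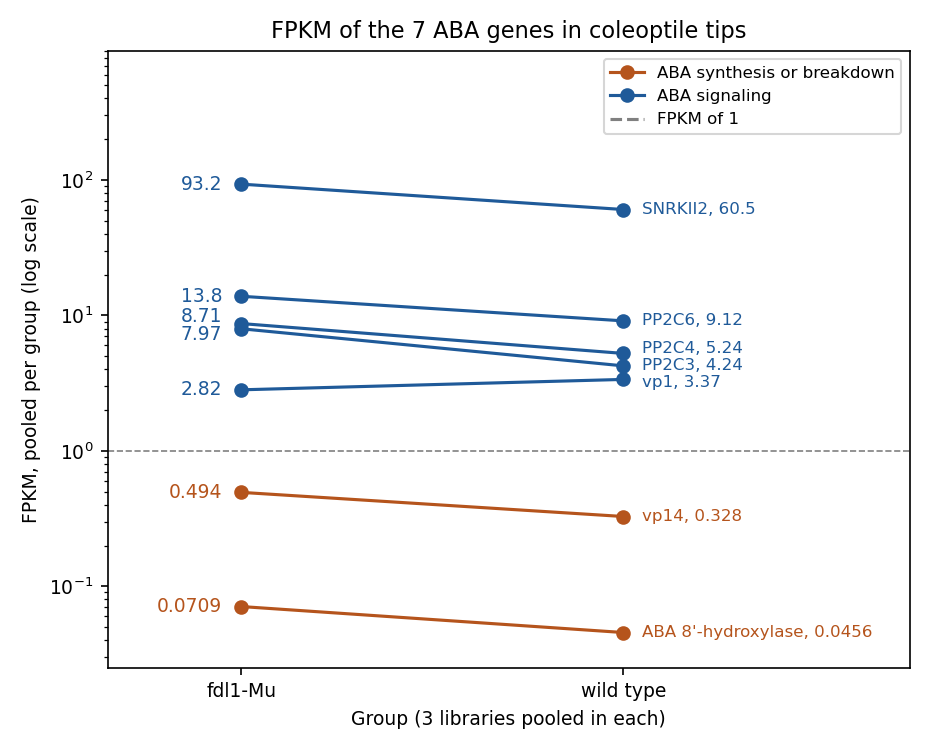
Pooled FPKM (log scale) of the 7 ABA genes in fdl1-Mu (left) and wild type (right), with a line joining the 2 values of each gene and no error bars because only pooled values were used. Both turnover genes lie under the dashed line at an FPKM of 1 in both groups, and of the signaling genes only vp1 is lower in fdl1-Mu, at 2.82 against 3.37.

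The signaling genes were all expressed above this range, and 4 of the 5 were past the limit as higher in fdl1-Mu, where 11.7% of all genes were. None was past the limit as lower. The exception was vp1. The 4 higher genes are those by which the study illustrates ABA signaling, picked from these same libraries, so that their direction is not independent evidence. The study also reports that FDL1 bound many of its raised ABA signaling genes in vitro, which was not examined here.

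PP2C3 (GRMZM2G059453, chromosome 3, 180096139 to 180098099), a phosphatase that the study pairs with Arabidopsis HAI2, showed the largest ratio of the 7 genes. Its FPKM was 7.97 in fdl1-Mu, against 4.24 in wild type, which is 1.88-fold or a log2 ratio of 0.91. Among the 21364 genes, 5.71% had a higher ratio. Its percentile among all genes above 0 in a group was 55.8 in fdl1-Mu and 45.8 in wild type.

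PP2C4 (GRMZM2G177386, chromosome 6, 161744096 to 161747484), paired with Arabidopsis HAB1, had an FPKM of 8.71 in fdl1-Mu, against 5.24 in wild type, 1.66-fold higher. PP2C6 (GRMZM2G166297, chromosome 8, 168030486 to 168032471), also paired with HAI2, had 13.8 FPKM in fdl1-Mu and 9.12 FPKM in wild type. Its ratio of 1.52-fold lay just past the limit and dropped to the other side of it when the ratios were centred on the median gene, at a log2 ratio of 0.58, or when 1 was added to each FPKM, at 0.55. Genes at this level passed the limit less often than lower ones, 19.6% of which did so as higher at a mean FPKM between 1 and 5. Of the 8308 genes with a mean FPKM between 5 and 20, where all 3 phosphatase genes lie, 8.79% were past the limit as higher.

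SNRKII2 (GRMZM2G056732, chromosome 7, 166410296 to 166416118), a SnRK2 kinase gene that the study names as the homolog of Arabidopsis SnRK2.6, was by far the most abundant of the 7. Its FPKM was 93.2 in fdl1-Mu, against 60.5 in wild type, at percentiles 95.6 and 93.0. The difference of 32.7 FPKM was the largest in absolute terms, while the ratio of 1.54-fold was close to that of PP2C6. With each group scaled to the same summed FPKM, the log2 ratio was 0.58, just under the limit. Of the 5762 genes with a mean FPKM between 20 and 100, 5.47% were past the limit as higher.

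The transcription factor gene vp1 (GRMZM2G133398, chromosome 3, 162842569 to 162847653) had an FPKM of 2.82 in fdl1-Mu, against 3.37 in wild type. This is a log2 ratio of -0.26, within the limit, and 79.1% of the 21364 genes had a higher ratio. The quotient of PP2C3 over vp1 was 2.82 in fdl1-Mu and 1.26 in wild type. No locus of the 7 genes overlaps that of another gene in the table.

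**Figure D2:**
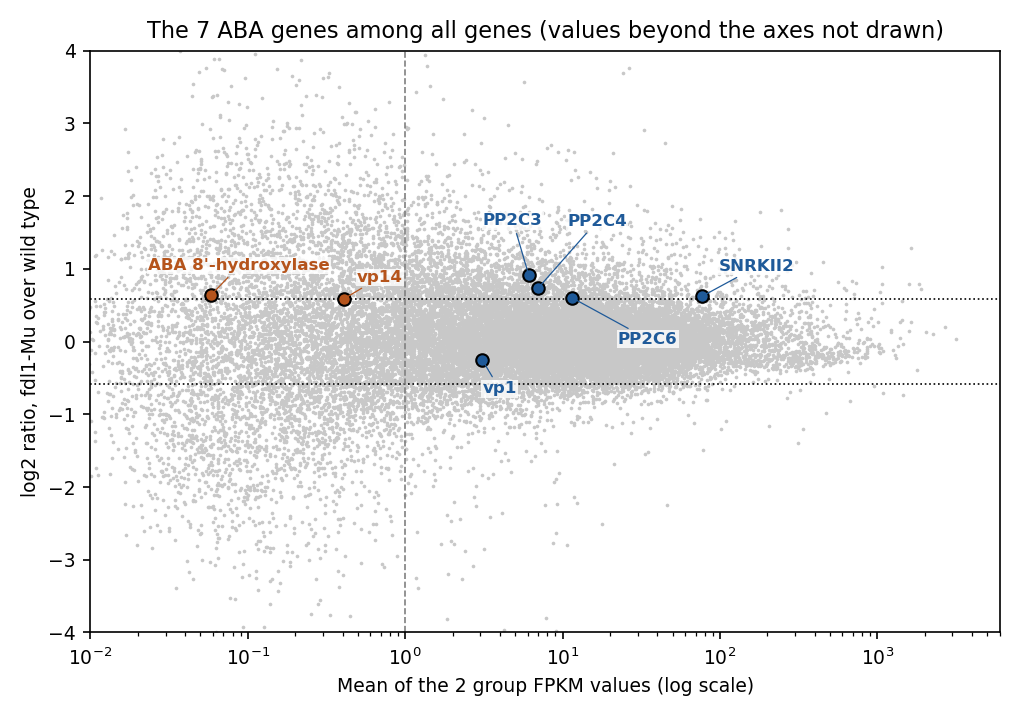
Log2 ratio of fdl1-Mu over wild type against the mean of both group FPKM values (log scale) for all genes above 0 in both groups (grey points), with the 7 ABA genes in colour (orange, turnover; blue, signaling). Dotted lines mark the 1.5-fold limit and the dashed line an FPKM of 1, and the grey cloud is widest to the left of the dashed line, where vp14 and the ABA 8'-hydroxylase gene lie.

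The 7 genes were then set beside other genes of the pathway, listed by the gene symbols in the NCBI RefSeq annotation of maize. The list held 56 genes with the 7 included, of which 42 were neither among the 7 nor ABA-responsive target genes. Of these 42, 35 reached an FPKM of 1 in a group. In fdl1-Mu 7 of the 35 were past the limit as higher, or 20%, and 0 as lower, beside 11.7% and 5.33% of all genes. Of these 7, 3 phosphatase genes reached the minimum only through fdl1-Mu, where they were higher. Among genes that reached an FPKM of 1 in wild type, 4 of 32 were past the limit as higher, or 12.5%, beside 9.30% of all such genes. No test of the list was made.

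The 4 listed synthesis genes other than vp14 were well expressed and stayed within the limit. No other dioxygenase gene like vp14 was on the list. Whether these 4 genes act in ABA synthesis alone was not examined, so that their sum is no measure of ABA synthesis. AO1 (GRMZM2G141535), an aldehyde oxidase gene, had an FPKM of 71.6 in fdl1-Mu, against 59.8 in wild type. Of the 2 gene models listed under AO2, GRMZM5G899851 had 31.8 in fdl1-Mu and 31.7 in wild type. The other model, GRMZM2G124175, had 30.1 in fdl1-Mu and 27.2 in wild type. VP15 (GRMZM2G121468), a gene for the molybdenum cofactor that aldehyde oxidases need, had 6.92 in fdl1-Mu, against 5.03 in wild type, and its locus overlaps another gene. The highest log2 ratio of the 4 was thus 0.46. The class summed to an FPKM of 141 in fdl1-Mu and 124 in wild type, of which vp14 made up 0.350% in fdl1-Mu and 0.264% in wild type. For breakdown the list holds only the hydroxylase gene already described, because the annotation gave no further symbol.

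The receptor genes as a class differed little between the groups. Of the 11 PYL genes listed, 8 had an FPKM of at least 1, with a class median log2 ratio of 0.083. Among the 8, 1 gene was past the limit as higher, or 12.5%, beside 11.7% of all genes. That gene was PYL7 (GRMZM2G144224), with an FPKM of 5.06 in fdl1-Mu, against 3.15 in wild type. PYL9 (GRMZM2G048733) followed at 13.2 in fdl1-Mu and 9.05 in wild type, a log2 ratio of 0.54. The most abundant receptor gene of wild-type tips, PYL3 (GRMZM2G154987), leaned the other way, with 17.1 in fdl1-Mu and 21.6 in wild type. So did GRMZM2G165567, one of the genes carrying the symbol PYL10, with 12.3 in fdl1-Mu and 16.8 in wild type. Another gene, GRMZM2G047677, carries the symbols PYL3 and PYL4 and had 1.23 in fdl1-Mu and 1.20 in wild type. Over all 11 genes the summed FPKM was 91.4 in fdl1-Mu and 90.8 in wild type, and the sign of this small difference turned when the groups were centred or rescaled.

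Of the 24 genes with a PP2C symbol, which are not all known to act in ABA signaling, 20 had an FPKM of at least 1. Among them 8 were past the limit as higher, where 11.7% of all genes were, and 0 as lower. These 8 include PP2C3, PP2C4 and PP2C6, which the study picked as higher, and 3 genes that reached an FPKM of 1 only in fdl1-Mu. Without those 6 genes, 2 of the other 14 were past the limit, or 14.3%, beside the 9.30% of all genes that reached an FPKM of 1 in wild type. Those 2 were PP2C29 and PP2C2. PP2C29 (GRMZM2G053722) had an FPKM of 13.2 in fdl1-Mu, against 7.63 in wild type. PP2C2 (GRMZM2G134628) had 19.6 in fdl1-Mu, against 12.2 in wild type. Both were more abundant than PP2C3 and PP2C4 in each group, at ratios of 1.73-fold and 1.60-fold. Another gene model listed under PP2C29, GRMZM2G423116, stayed under the minimum, with 0.654 in fdl1-Mu and 0.326 in wild type. Over the 20, 5 were past the limit as higher with 1 added to each FPKM. Over all genes 1703 were so, beside 2501 with nothing added. With a minimum FPKM of 5, which not all of the 20 reached, 5 were past it. Over all genes 1306 were, and the genes reaching this minimum were not counted, so that no share is given.

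The highest ratios of the phosphatase class belonged to genes of low expression. PP2C13 (GRMZM2G159811) had an FPKM of 1.06 in fdl1-Mu, against 0.404 in wild type, and PP2C16 (GRMZM2G082487) had 2.01 in fdl1-Mu, against 0.835 in wild type. PP2C11 (GRMZM2G308615) had 1.62 in fdl1-Mu, against 0.854 in wild type. These 3 genes passed the minimum of 1 only through fdl1-Mu, where they were higher. By ratio, PP2C3 came next after them, at rank 4 of the 20.

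The most abundant phosphatase genes stayed within the limit. The gene named PP2C without a number (GRMZM2G166035) had 67.1 in fdl1-Mu, against 54.2 in wild type, a log2 ratio of 0.31. PP2C21 (GRMZM2G073788) had 36.8 in fdl1-Mu and 40.0 in wild type. PP2C3, PP2C4 and PP2C6 together made up 9.95% of the class sum in fdl1-Mu and 7.09% in wild type. The class sum was 307 in fdl1-Mu and 262 in wild type, 1.17-fold higher, while the 3 genes alone summed to 30.5 in fdl1-Mu and 18.6 in wild type, 1.64-fold higher. Phosphatase over receptor, the quotient of the class sums was 3.36 in fdl1-Mu and 2.89 in wild type.

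**Figure D3:**
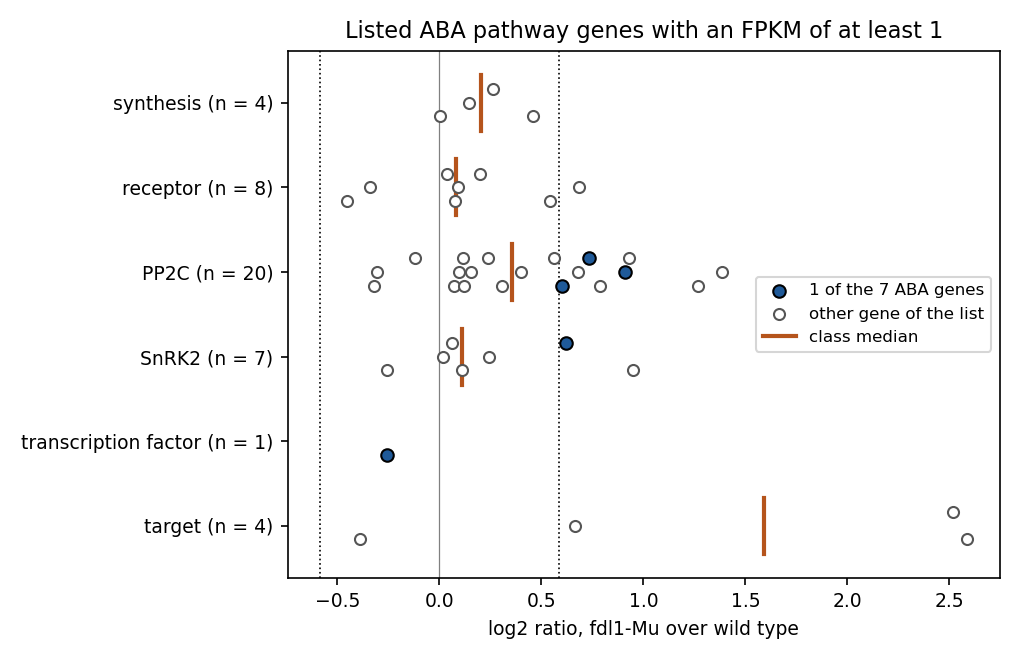
Log2 ratio of fdl1-Mu over wild type for each listed pathway gene that reached an FPKM of 1 in a group, by class, with the number of such genes beside the class name, class medians as orange bars and the 1.5-fold limit dotted. Filled points are the 5 of the 7 ABA genes that reached this minimum. The receptor genes lie on both sides of 0 around a median of 0.083, and 8 of the 20 phosphatase genes lie past the right dotted line, of which 3 reached the minimum only in fdl1-Mu.

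The kinase genes held the most abundant one of the 7 ABA genes. All 7 SnRK2 genes listed had an FPKM of at least 1, and whether all of them act in ABA signaling was not examined. In fdl1-Mu 2 of them were past the limit as higher, beside 11.7% of all genes. With both groups scaled to the same summed FPKM, 1 was, beside 2256 of all genes. Without SNRKII2, which the study picked as higher, 1 of the other 6 was past the limit unscaled, or 16.7%. SnRK2.11 (GRMZM2G063961) had the highest ratio of the class, 1.93-fold, with an FPKM of 9.64 in fdl1-Mu, against 5.001 in wild type. The other one was SNRKII2, which the annotation lists as SnRK2.2. SnRK2.7 (GRMZM2G155593), the most abundant kinase gene of the class, had 107.9 in fdl1-Mu and 128.8 in wild type, and its locus overlaps another gene. The quotient of SNRKII2 over SnRK2.7 was 0.864 in fdl1-Mu and 0.470 in wild type. The gene that the annotation calls SnRK2.6 (GRMZM2G130018) is another one than SNRKII2 and had 20.9 in fdl1-Mu and 17.6 in wild type.

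The summed FPKM of the kinase class was 301 in fdl1-Mu and 277 in wild type, 1.09-fold higher. The sum depended on its most abundant genes. Without SNRKII2, the other 6 genes summed to 208 in fdl1-Mu and 217 in wild type, while their median log2 ratio was 0.084. Without SnRK2.7, the other 6 genes summed to 193 in fdl1-Mu and 149 in wild type. SNRKII2 made up 30.9% of the class sum in fdl1-Mu and 21.8% in wild type, while SnRK2.7 made up 35.8% in fdl1-Mu and 46.4% in wild type. The order of the 7 kinase genes by FPKM was the same in both groups.

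**Figure D4:**
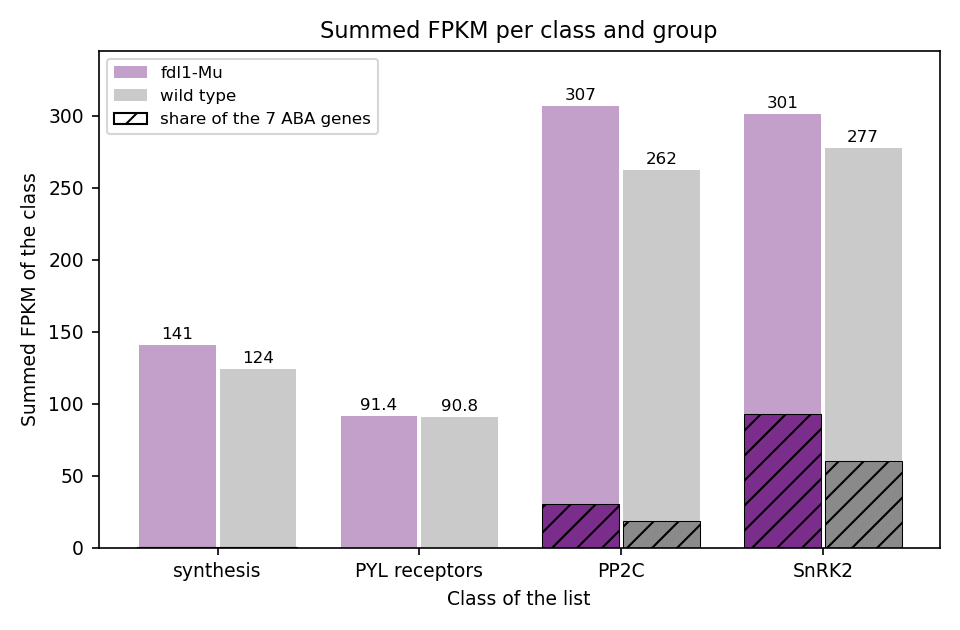
Summed FPKM of the listed synthesis, PYL receptor, PP2C and SnRK2 genes in fdl1-Mu (left bar of each pair) and wild type (right bar), with the part contributed by the 7 ABA genes hatched. The receptor sums are nearly equal, 91.4 in fdl1-Mu and 90.8 in wild type, and the part of vp14 in the synthesis sums is too small to be seen.

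Known ABA-responsive genes were listed as targets. Of the 4 with an FPKM of at least 1, 3 were past the limit as higher in fdl1-Mu, beside 11.7% of all genes. These 4 lie at mean FPKM levels where between 5.47% and 19.6% of all genes were past the limit as higher. The late embryogenesis abundant gene mlg3 (GRMZM2G096475) had an FPKM of 9.38 in fdl1-Mu, against 1.64 in wild type. The dehydrin gene dhn1, also called rab17 (GRMZM2G079440), had 8.55 in fdl1-Mu, against 1.42 in wild type, or 6.01-fold. With 1 added to each FPKM, the log2 ratio of dhn1 went from 2.59 to 1.98. At a higher level, dhn2 (GRMZM2G373522) had 64.6 in fdl1-Mu, against 40.7 in wild type, or 1.59-fold. The study reports dehydrin genes as strongly upregulated in these same libraries, so that the direction of dhn1 and dhn2 is not independent evidence. RAB15 (GRMZM2G165901), the most abundant of the listed genes, leaned the other way, with 1544 in fdl1-Mu and 2022 in wild type. With RAB15 included, the summed FPKM of the 7 target genes was 1628 in fdl1-Mu and 2067 in wild type. The seed maturation genes EMB5, glb1 and glb2, among which the globulin genes are known from maize embryos, were all under 1 FPKM, with ratios between 1.03-fold and 1.07-fold. For glb1 the FPKM was 0.138 in fdl1-Mu and 0.129 in wild type, and for glb2 0.139 in fdl1-Mu and 0.134 in wild type.

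Set side by side, 4 of the 5 signaling genes were between 1.52-fold and 1.88-fold higher in fdl1-Mu, at a wild-type FPKM of 4.24 or more. The study picked these 4 as higher from these same libraries. With both groups scaled to the same summed FPKM, PP2C6 and SNRKII2 fell under the limit, at log2 ratios of 0.56 and 0.58. The signaling gene vp1 was lower, at a log2 ratio of -0.26. The turnover genes were 1.51-fold and 1.56-fold higher at a wild-type FPKM of no more than 0.328. Whether the turnover genes changed with the signaling genes could not be read from these values, since ratios of this size occurred upward in 28.5% and downward in 25.5% of the genes under 1 FPKM. ABA itself was not measured in this table.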

How the data were processed

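RNA-seq values of 3 fdl1-Mu and 3 wild-type libraries were used. According to the methods and the submitters' processing notes, the authors trimmed reads (Trimmomatic), mapped those of stranded libraries to B73v3 with TopHat2 2.1.1 and ran Cuffdiff. The version of Cuffdiff and the annotation file are not given in the sources used here. The deposited FPKM values are the authors' pooled values per group. The columns of the authors' own comparison (log2 fold change, test statistic, p-value, q-value and call) were not used. The status column served to leave out 1 gene with too many reads and to name genes with too few. The ratios of 1723 genes under 0.1 FPKM were put into 60 bins, and the fullest held 5.05%. No value was set for what spacing by whole reads would give, so that this cannot decide whether such spacing was present. Read numbers were not analysed here, so that depth is unknown and counting errors were not computed.

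Log2 ratios were taken with no pseudocount, leaving out genes at 0 in a group, with Python 3.11.15, pandas 2.3.3, numpy 2.4.6 and matplotlib 3.10.9. Starts were raised by 1 to count from 1. The RefSeq table of Zm-B73-REFERENCE-NAM-5.0 was used for names only. It matched 18993 of the identifiers, among them 6 of the 7 ABA genes, and the name of the ABA 8'-hydroxylase gene was taken from the choice of genes. Symbols matched by the list but without a row here were 3, and 2 matches (asr1, a haemoglobin gene) were removed because their names showed other genes. Classes by protein similarity or description, and sequences, were not used here. Pathway genes past the limit and the most abundant one of each class were to be named by rule, and others were named after their values were seen. The genes, lists and limits were chosen with earlier results of these data known.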

Additional observations from a re-analysis of the deposited data

How the results depend on the processing

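No paired analysis was possible because only pooled values per group were used, and for the same reason no replicate could be left out. Among the 7 ABA genes, the log2 ratio of vp14 was 0.47 with a pseudocount of 0.1, 0.17 with 1, 0.57 centred on the median gene and 0.55 with both groups scaled to the same summed FPKM, all under the 1.5-fold limit. That of the ABA 8'-hydroxylase gene, and of its class, was 0.23 and 0.034 with the pseudocounts of 0.1 and 1. That of PP2C6 was 0.55 with a pseudocount of 1, 0.58 centred and 0.56 scaled, and that of SNRKII2 0.58 scaled. PP2C3, PP2C4 and vp1 stayed on their side of the limit under these 4 settings. The quotient of vp14 over the hydroxylase gene, a log2 ratio of -0.045, turned to 0.24 and 0.14 with the pseudocounts of 0.1 and 1. The receptor sum turned to -0.011 centred and -0.033 scaled, and the kinase sum, a log2 ratio of 0.12, to -0.061 without SNRKII2, while it was 0.38 without SnRK2.7. Both exclusions were chosen after seeing the data. Of the 7 genes, 2 were past the limit as higher after scaling, 3 after centring, and 0 at a 2-fold limit. Over all genes 2256 were higher after scaling and 2369 after centring. Over all genes, 4785 were higher and 3445 lower at the lowest fold limit tried, 997 and 279 at a 2-fold limit, 4398 and 2835 with no minimum FPKM, 1306 and 545 with a minimum of 5, and 604 were lower with a pseudocount of 1. Of the 35 other pathway genes, 11 were higher and 3 lower at the lowest fold limit, and 2 were higher at 2-fold. With a pseudocount of 1, 4 were higher, where 1703 of all genes were. With a minimum of 5, which not all of the 35 reached, 4 were higher, where 1306 of all genes were. With the minimum of 1 required in wild type, a choice made after seeing the data, 4 of 32 were higher, or 12.5%. Of all such genes 9.30% were.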

Other observations

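SNRKII2 lies on the same chromosome as the mutated gene. Between the end of SNRKII2 and the start of FDL1 on chromosome 7 there were 1.23 Mb and 45 listed genes. Of the 23 that reached an FPKM of 1 in a group, 3 were past the 1.5-fold limit as higher in fdl1-Mu, or 13.0%, and 0 as lower, with a median log2 ratio of -0.0023. Over all genes the shares were 11.7% and 5.33%. The part of position in the value of SNRKII2 was not tested.

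Of the 7 ABA genes, the 6 on other chromosomes than FDL1 included 3 that were past the limit as higher, PP2C3, PP2C4 and PP2C6. Over all genes the share was 11.7%. The study picked these 3 as higher from these same libraries, and vp14 and the hydroxylase gene were under the minimum FPKM. These counts therefore say nothing about position, which was not tested.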
